A study of Rattus norvegicus with 4 samples.

Results

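The genes described here are the heat shock transcription factor gene Hsf1 and 9 chaperone or cochaperone genes, namely Hspa1a, Hspa8, Hspa4l, Hspb1, Hsp90aa1, Hsph1, Bag3, Hspd1 and Hspe1. They were chosen by name, and their probes were found by matching the RefSeq accession of each array probe to a rat gene symbol. All 10 genes had at least 1 probe, out of 16581 named genes on the array. Together they had 19 probes on 57 spots per array, out of 45598 probes. RNA came from 4 cultures of NR8383, a rat alveolar macrophage line grown from lung lavage, after 20 passages. All of them received NRCWE055, single-walled carbon nanotubes in pristine form, for 4 h at a dose stated as 11 cm2/cm2. The study design calls the cultures biological replicates, and they were assigned by sample title, because the source names of replicates 2, 3 and 4 give other nanotube numbers. The design also names unexposed control cultures, which were not analysed here, and no level below is a response to the nanotubes.

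Heat shock proteins are molecular chaperones that keep other proteins folded, and many are made in larger amounts when proteins misfold. HSF1 is held inactive in unstressed cells, forms trimers under stress and binds heat shock elements, runs of inverted GAA units, in the promoters of its target genes. HSP70 and HSP90 chaperones act with J-domain proteins, nucleotide exchange factors and other cochaperones, and small heat shock proteins hold unfolded proteins until these can be refolded. In macrophages the same system is known to respond to heat and oxidants.

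RefSeq promoter windows of build GRCr8, each from 250 bases before to 50 bases after an annotated transcript start, were found for 8 of the 10 genes, and not for Hsf1 and Hsp90aa1. They are shown because heat shock elements are the sites through which HSF1 is known to act, and they describe sequence only, since no binding was measured. Pairs of inverted units were searched as GAANNTTC and TTCNNGAA, and triples as either pair followed by 1 more alternating unit after NN, that is, GAANNTTC with NNGAA or TTCNNGAA with NNTTC. Each pair reads the same on both strands, each triple is the reverse complement of the other, and every triple holds 2 overlapping pairs. Capitals mark the matched pairs, and overlapping pairs run together. The windows of Hspe1, Hspa8 and Hsph1 are given whole, and those of Hspd1, Hspb1, Bag3 and Hspa4l as the matches with up to 20 bases on each side.
Hspe1, chr9:64084077-64084376, plus strand: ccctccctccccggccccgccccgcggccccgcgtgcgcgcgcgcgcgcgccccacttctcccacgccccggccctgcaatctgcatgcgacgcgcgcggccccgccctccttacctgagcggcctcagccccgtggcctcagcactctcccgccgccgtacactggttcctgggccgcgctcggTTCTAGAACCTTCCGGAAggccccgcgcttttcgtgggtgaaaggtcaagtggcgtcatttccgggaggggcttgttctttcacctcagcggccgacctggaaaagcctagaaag
Hspd1, chr9:64084242-64084287, minus strand: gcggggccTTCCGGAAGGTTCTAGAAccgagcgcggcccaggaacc
Hspa8, chr8:50080264-50080563, plus strand: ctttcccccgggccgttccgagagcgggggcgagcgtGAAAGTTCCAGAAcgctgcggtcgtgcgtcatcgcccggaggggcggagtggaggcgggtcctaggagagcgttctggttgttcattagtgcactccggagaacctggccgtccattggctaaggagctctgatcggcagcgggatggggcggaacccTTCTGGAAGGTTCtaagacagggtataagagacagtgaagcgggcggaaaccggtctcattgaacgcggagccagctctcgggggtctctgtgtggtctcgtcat
Hsph1, chr12:10427118-10427417, plus strand: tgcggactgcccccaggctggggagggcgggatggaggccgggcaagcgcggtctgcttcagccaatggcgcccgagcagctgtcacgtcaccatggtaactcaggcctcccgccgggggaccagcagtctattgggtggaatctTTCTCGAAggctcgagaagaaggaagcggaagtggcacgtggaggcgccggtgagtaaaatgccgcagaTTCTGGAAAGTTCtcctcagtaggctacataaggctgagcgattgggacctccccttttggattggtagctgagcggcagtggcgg
Hspb1, chr12:26432383-26432450, minus strand: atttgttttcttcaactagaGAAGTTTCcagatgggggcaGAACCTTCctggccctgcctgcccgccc
Bag3, chr1:192533308-192533355, plus strand: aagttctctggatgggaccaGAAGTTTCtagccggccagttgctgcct
Hspa4l, chr2:125668364-125668395, plus strand: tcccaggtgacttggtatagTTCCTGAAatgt

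Hspe1 and Hspd1 encode the mitochondrial cochaperonin HSP10 and chaperonin HSP60, and their windows lie head to head on opposite strands and share 211 bases. One run of 18 bases in the shared stretch holds 4 alternating units. It ended 47 bases before the Hspe1 start and 224 bases before the Hspd1 start. The Hspa8 window held 2 triples, which ended 200 and 42 bases before the start. The Hsph1 window held 1 triple ending 23 bases before the start and 1 separate pair. Hspb1 had 2 pairs and Bag3 had 1 before the start, whereas the single pair of Hspa4l lay after it. No pair was found in the Hspa1a window, which says only that these letters are not in that window. Of 33469 rat windows of the same length, 15.9% held a pair, 0.798% a triple and 0.0478% a run of 4 units, against 7, 4 and 2 of the 8 heat shock windows. The 2 windows with 4 units, Hspe1 and Hspd1, share the same bases and are also counted among the 4 with a triple. Heat shock genes are known for such elements, so these counts are a description.

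In the exposed macrophages, 9 of the 10 genes passed the scanner software's flag for a signal well above background on all 4 arrays, and Hspa1a passed it on none. The flag was passed on all arrays by 52.4% of named genes and on none by 41.6%. Levels are given as log2 processed signal minus the 75th percentile of the array's detected probes, so that 0 stands for that percentile, as mean ± SD over 4 arrays. That percentile was 1756, 2631, 2861 and 1873 processed signal units on replicates 1 to 4. Many unscaled signals follow it, but not all, as given below for Hspb1 and for 1 probe of Hspa8. With 4 arrays, each SD is itself known only roughly. Probes differ in how brightly they report a transcript, so levels of different probes or genes are not ranked.

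**Figure D1:**
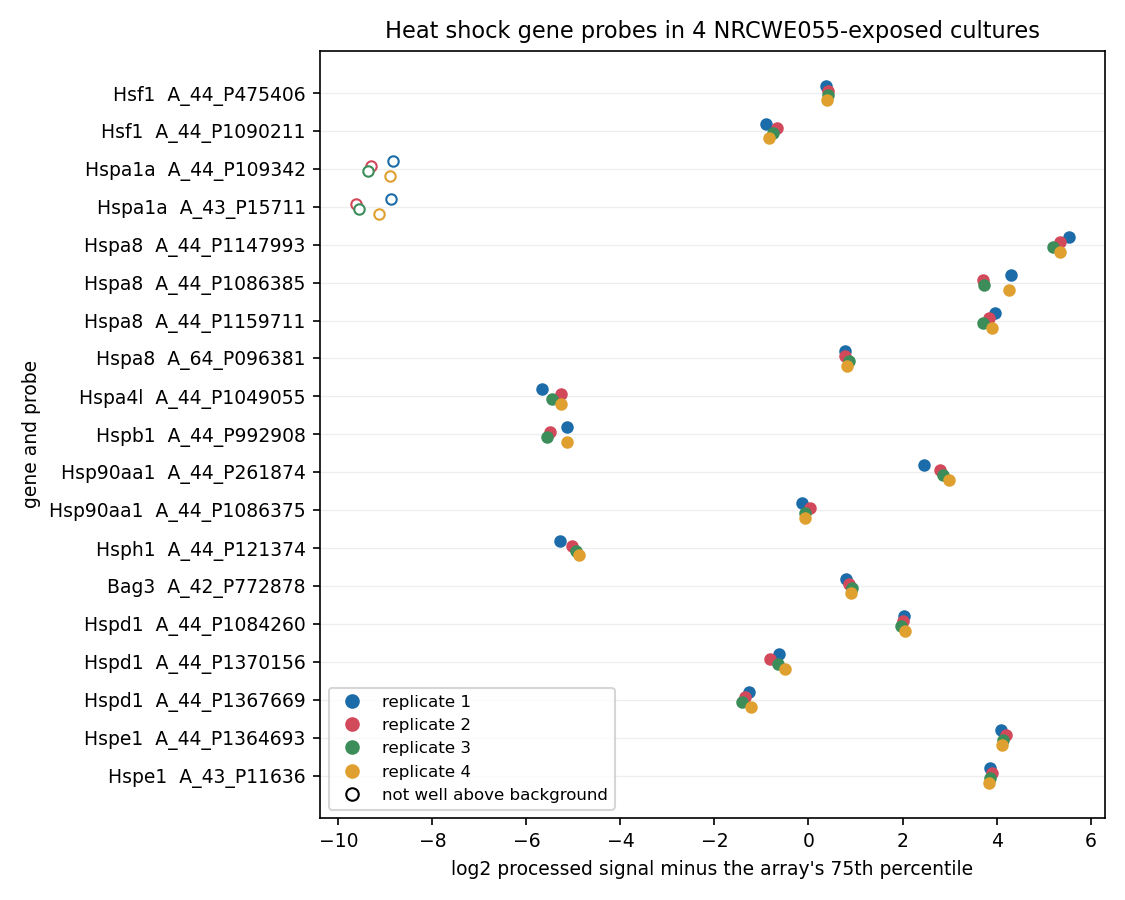
Level of each of the 19 probes of the 10 heat shock genes on each of 4 arrays, as log2 processed signal minus the array's 75th percentile; each point is 1 array and open points are not well above background. The 17 probes of 9 genes lie between -5.66 and 5.54, and both Hspa1a probes lie at -8.83 or below on every array.

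Hsf1, the gene of the regulator, was measured by 2 probes. Probe A_44_P475406 had processed signals of 2274, 3502, 3837 and 2477 on replicates 1 to 4, which after scaling became levels of 0.37, 0.41, 0.42 and 0.40. Probe A_44_P1090211 had signals of 935, 1663, 1695 and 1040 and levels of -0.91, -0.66, -0.76 and -0.85. The first probe varied by 1.04-fold and the second by 1.19-fold over the arrays, and the probes lay 1.20 apart. Averaged over both, Hsf1 was at -0.20 ± 0.06 (SD, n = 4).

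Hspa1a encodes the main stress-inducible HSP70, which is scarce in many unstressed cells. Its probe A_44_P109342 had processed signals of 3.85, 4.16, 4.31 and 3.91 on replicates 1 to 4, and probe A_43_P15711 had 3.75, 3.33, 3.77 and 3.34. The 308 negative control spots had median signals of 3.85, 3.64, 4.16 and 3.73 on the same arrays, so the Hspa1a probes read close to spots with no target. Before background correction their spots had median pixel signals of 49 to 61, against 36 to 48 in the local background. Neither probe passed the looser flag of a positive and significant signal on any array. The lowest level of any detected probe was -6.81, -7.40, -7.49 and -6.89 on replicates 1 to 4, and every Hspa1a reading lay below it. No probe was matched to Hspa1b, its near-identical neighbour, and the single probe of the third gene of this cluster, Hspa1l, was not well above background on any array or by the looser flag.

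Of the other stress-inducible genes, Hsph1, Hspb1 and Bag3 were detected on every array. Hsph1, which encodes the HSP110 nucleotide exchange factor HSP105, gave dim signals of 45.3, 80.2, 93.5 and 63.4 on replicates 1 to 4. Its levels were -5.28, -5.04, -4.94 and -4.88, a mean of -5.03 ± 0.17 (SD, n = 4), with replicate 1 the lowest. Bag3, the gene of a cochaperone that links HSP70 to autophagy, had 1 probe printed on 2 spots per array. Its signals were 3059, 4766, 5444 and 3528 and its levels 0.80, 0.86, 0.93 and 0.91, a mean of 0.87 ± 0.06 (SD, n = 4). The Bag3 levels spanned 1.09-fold over the 4 cultures.

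Hspb1 encodes the small heat shock protein HSP27, known in rodents as HSP25, and its single probe was printed on 10 spots per array. Averaged over spots, its signals were 49.8, 58.4, 60.3 and 53.1 on replicates 1 to 4, and its levels -5.14, -5.49, -5.57 and -5.14, a mean of -5.34 ± 0.23 (SD, n = 4). Averaged in this way, replicates 1 and 4 were nearly equal and lay above replicates 2 and 3. That near equality rests on the mean, in which replicate 1 includes 1 spot at 7.43. The median signals over spots were 60.1, 62.2, 61.3 and 55.9 on replicates 1 to 4. Neither mean nor median signals followed the 75th percentile, which ran from 1756 on replicate 1 to 2861 on replicate 3. Unscaled, the mean signals of replicates 1 and 4 lay below those of replicates 2 and 3, so their higher levels came with the scaling. With the median over spots, chosen after seeing the data, Hspb1 was at -5.22. The spots were uneven within each array. They ran from 7.43 to 84.4 on replicate 1, from 23.8 to 104 on replicate 2, from 24.8 to 107 on replicate 3 and from 30.2 to 88.2 on replicate 4. The same spot was lowest on replicates 1, 2 and 3, and the same spot was highest on replicates 2, 3 and 4. Across the 10 positions, the correlation between pairs of arrays had a median of 0.83 and ranged from 0.50 to 0.98, where the arrays share the print layout. The SD among spots within an array was 0.731 on the log2 scale, against a median of 0.212 in the 30 probes printed 10 times with mean levels from -6 to -5, of which Hspb1 was the most uneven. On replicate 1, 9 of 10 spots were well above background, and on the other arrays all 10 were. The part of print position in the Hspb1 level was not tested.

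**Figure D2:**
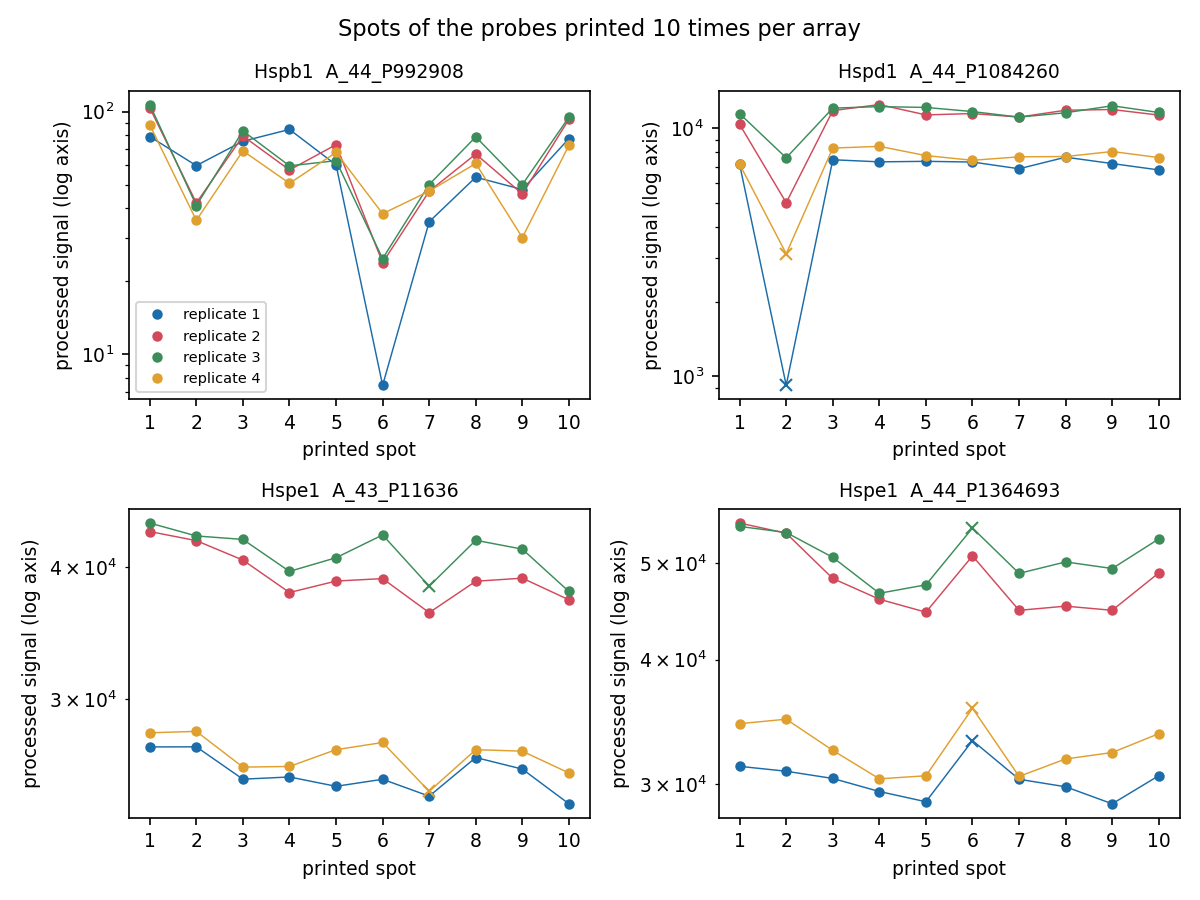
Processed signal (log axis) of each of the 10 printed spots of the 4 heat shock probes printed 10 times per array, with 1 line per array and crosses for spots marked as outliers. The Hspb1 spots follow a broadly similar order on the 4 arrays, and the second Hspd1 spot is the lowest of its probe on every array.

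Hspa8, Hsp90aa1 and Hspa4l encode chaperones that act in the cytosol. Hspa8, the gene of the constitutive HSP70 known as HSC70, was detected by all 4 of its probes and was at 3.51 ± 0.12 (SD, n = 4) on average. Probe A_44_P1147993 had signals of 81890, 107989, 105950 and 76412 on replicates 1 to 4 and levels of 5.54, 5.36, 5.21 and 5.35. Probe A_44_P1159711 had levels of 3.96, 3.84, 3.72 and 3.89, and probe A_64_P096381 had levels of 0.77, 0.79, 0.86 and 0.81. The fourth, A_44_P1086385, behaved unlike these, since its signals of 34561, 34620, 38317 and 36093 were nearly the same on all arrays in spite of their different brightness. Its levels were therefore 4.30, 3.72, 3.74 and 4.27, with replicates 1 and 4 above replicates 2 and 3 over a range of 0.58 on the log2 scale. The probes of Hspa8 lay up to 4.56 apart, and each was printed on 1 spot per array, so spot and culture cannot be told apart for any of them.

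Hsp90aa1, the gene of the stress-inducible cytosolic HSP90, had 2 probes, which lay 2.84 apart. Probe A_44_P261874 had signals of 9608, 18243, 20658 and 14794 on replicates 1 to 4 and levels of 2.45, 2.79, 2.85 and 2.98. Probe A_44_P1086375 had levels of -0.14, 0.03, -0.08 and -0.08. Replicate 1 was the lowest on both probes, by more on the first. The gene averaged 1.35 ± 0.13 (SD, n = 4). Hspa4l encodes another HSP110 family member, and its signals were dim at 34.7, 68.5, 64.9 and 49.0. Its levels of -5.66, -5.26, -5.46 and -5.26 gave a mean of -5.41 ± 0.19 (SD, n = 4).

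Hspd1 and Hspe1, the mitochondrial pair that shares the promoter stretch with 4 units, were detected by all of their probes. Hspe1 had the smallest SD of the 9 detected genes. Some of the 9 rested on 1 spot per array, and the part of spot number in the SDs was not tested. Hspe1 had 2 probes printed on 10 spots each. Probe A_44_P1364693 had levels of 4.10, 4.19, 4.14 and 4.11 on replicates 1 to 4, and probe A_43_P11636 had levels of 3.86, 3.90, 3.86 and 3.84. The probes lay 0.27 apart, and the gene mean of 4.00 ± 0.03 (SD, n = 4) varied by 1.05-fold over the cultures. Hspd1 was measured by 3 probes that lay up to 3.34 apart. Its probe printed 10 times, A_44_P1084260, had levels of 2.04, 2.01, 1.98 and 2.05. The probe printed 2 times, A_44_P1370156, had -0.63, -0.81, -0.65 and -0.51, and the probe on 1 spot, A_44_P1367669, had -1.27, -1.35, -1.42 and -1.22. Over the 3 probes Hspd1 averaged 0.02 ± 0.07 (SD, n = 4). At 1 position, in the last column of the print grid, the 10-spot probe read 920, 5010, 7597 and 3120 on replicates 1 to 4, below each of its other spots. The spot was marked as an outlier, and so left out, on replicates 1 and 4 but not on replicates 2 and 3. With the median over spots in place of the mean, chosen after seeing the data, Hspd1 was at 0.03.

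The 9 detected genes differed little between the 4 cultures. Their SD ran from 0.0339 for Hspe1 to 0.228 for Hspb1, and the median was 0.125, whereas the 8685 detected genes together had a median SD of 0.0926. Of the 9, 5 had an SD above that median (Hspb1, Hspa4l, Hsph1, Hsp90aa1 and Hspa8), where 50.0% of all detected genes do. None spanned over 2-fold between its highest and lowest culture, as 1.11% of all detected genes did, and the widest, Hspb1, spanned 1.35-fold. The dim genes Hspb1, Hspa4l and Hsph1 had the largest SDs. Dim genes varied more in general, and the median SD was 0.179 in the 2127 detected genes with levels below -4, 0.0872 from -4 to 0 and 0.0659 above 0. Among the members with levels above 0, Hsp90aa1 (0.134), Hspa8 (0.125) and Hspd1 (0.0731) had SDs above that last median. Bag3 (0.0580) and Hspe1 (0.0339) lay below it. Whether the group as a whole lay above or below other genes depended on the scaling, on replicate 1 and on the filter for dim probes. With quantile normalization its median SD was 0.0756 against 0.0934 over all genes, and without replicate 1 it was 0.0718 against 0.0824. With no filter on dim probes it was 0.129 over all 10 members, Hspa1a included, against 0.244 over 16580 genes. The group median of 0.125 was the SD of Hspa8, whose probe A_44_P1086385, on 1 spot, had an SD of 0.320. The other Hspa8 probes had SDs from 0.0378 to 0.137, and the group median without that probe was not computed.

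**Figure D3:**
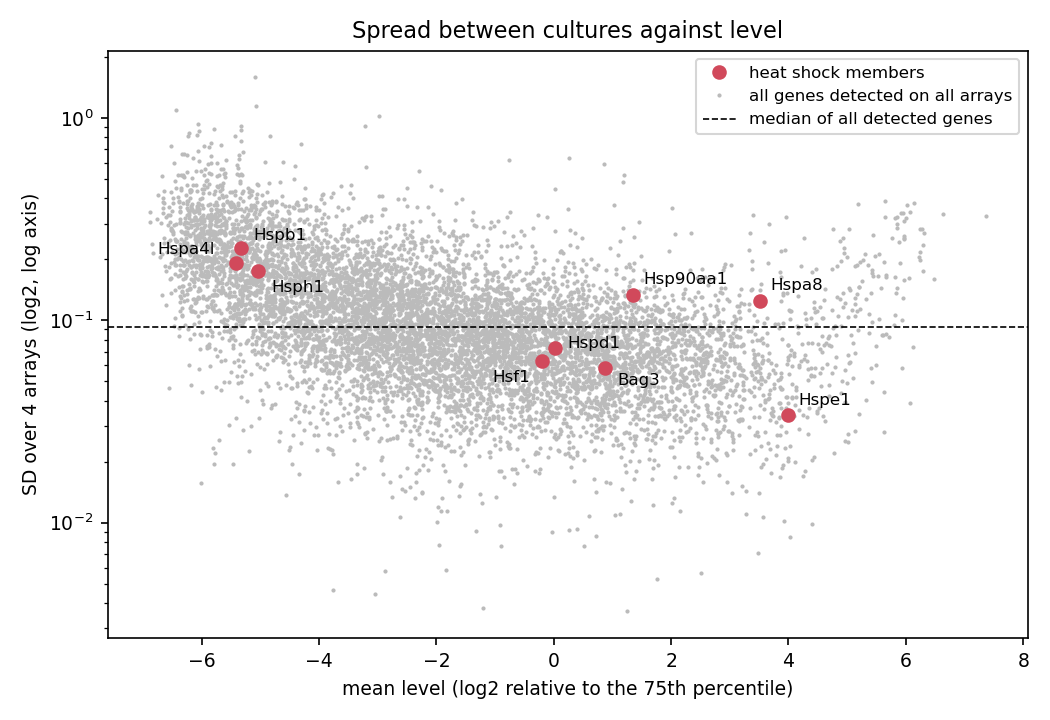
SD over the 4 arrays (log axis) against mean level for the 9 detected heat shock genes (red) and all 8685 genes detected on all arrays (grey); the dashed line is the median SD of all detected genes, 0.0926. Hspb1, Hspa4l and Hsph1 lie at low levels with SDs from 0.175 to 0.228, and Hspe1 has the lowest SD of the group at 0.0339.

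Probes printed on several spots allowed a test of whether arrays differed by more than the spots within them. With limma's moderated F test over replicate spots, none of 6 heat shock probes (1 of Bag3, 1 of Hspb1, 2 of Hspd1 and 2 of Hspe1) passed at a Benjamini-Hochberg adjusted p of 0.05, and 1 had an unadjusted p under 0.05. Of all 1742 such probes, 42.6% passed, made up of 65.3% of those printed 10 times and 9.09% of those printed 2 times. The nearest was the 2-spot probe of Hspd1, with a largest difference of 0.31 between arrays (limma adjusted p = 0.0526). For Hspb1 the largest difference was 0.43 (limma adjusted p = 0.489). This count depended on how spots were treated. Spot signals were correlated between arrays, with a median of 0.66 over the 1038 probes printed 10 times, though for the Hspd1 probe printed 10 times it fell to 0.31 in 1 pair of arrays. A fit with spot position as a block was therefore added after seeing the data. All 6 probes then passed, as did 68.1% of all 1742 probes. Hspb1 had a limma adjusted p of 0.0357 in that fit, and the 2 Hspe1 probes, which differed by 0.08 and 0.09 at most, had limma adjusted p of 6.52e-04 and 0.00119. Each culture had 1 array, so culture and array cannot be told apart.

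The wider chaperone system was measured with 9 further lists of 87 genes, of which 78 had a probe and 70 (89.7%) were well above background on all arrays, beside the 52.4% of all named genes. The median SD of the 70 was 0.0733. All measured J-domain proteins (17), HSP90 cochaperones (9), BAG family and HSP70 cofactors (9), HSP90-type and organelle chaperones (8), subunits of the cytosolic chaperonin CCT (8) and prefoldin subunits (4) were detected. Detection was less complete for the other HSP70 and HSP110 genes (7 of 9), the heat shock factors and their regulators (3 of 5) and the other small heat shock proteins (5 of 9). The 7 genes above background on no array were Hsf4, Hspa1l, Hspa12a, Hspb3, Hspb7, Hspb8 and Hspb9. By the looser flag Hsf4 was above background on 4 arrays, Hspb9 on 3 and Hspa12a on 2. No probe was matched to Dnajb1, a J-domain partner of HSP70.

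**Figure D4:**
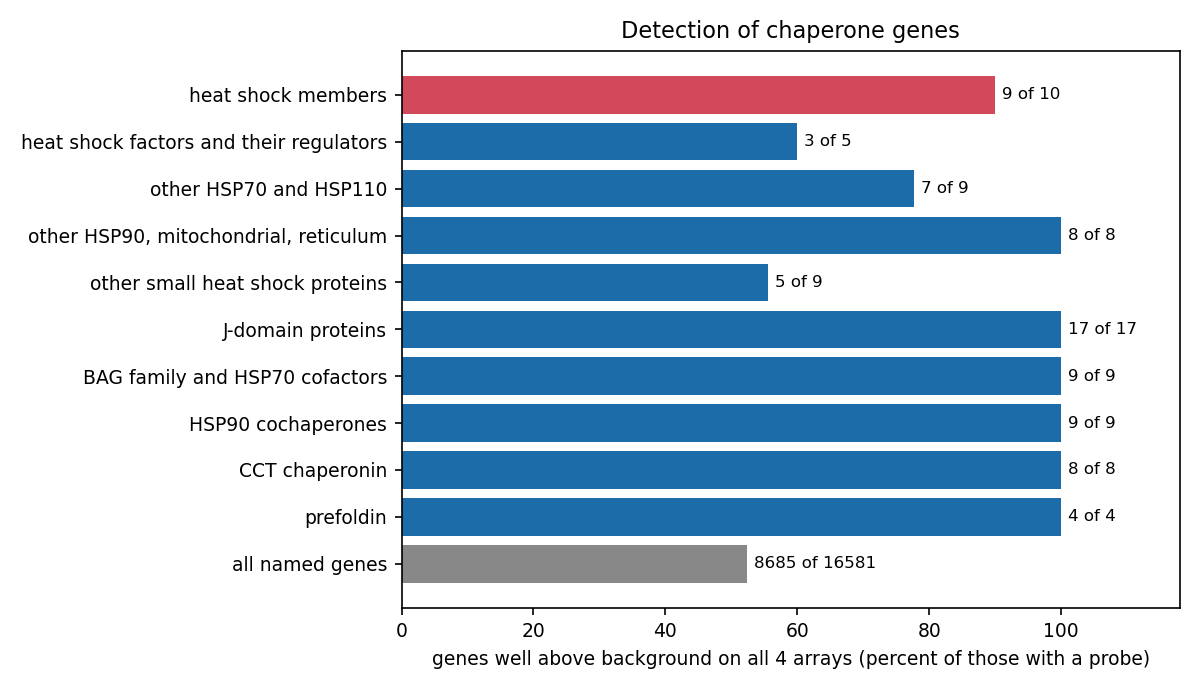
Share of genes well above background on all 4 arrays, in percent of those with a probe, for the 10 heat shock genes (red), 9 wider chaperone lists (blue) and all named genes (grey). The heat shock genes reach 9 of 10, and the small heat shock protein list is the lowest of the chaperone lists at 5 of 9.

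Among relatives of the heat shock genes, Hsf2, which encodes a second heat shock factor, was at -3.16 ± 0.06, and Hsbp1, the gene of a small protein that binds HSF1 trimers, at 0.79 ± 0.05 (SD, n = 4, as for all that follow). Of the HSP70 genes, Hspa5 of the endoplasmic reticulum was at 2.14 ± 0.10 and the mitochondrial Hspa9 at 0.08 ± 0.06. Hspa4, an HSP110 relative of Hspa4l, was at -1.08 ± 0.13, and Hspa2, best known from testis, at -6.18 ± 0.23. The constitutive cytosolic HSP90 gene Hsp90ab1 was at 4.03 ± 0.11, the reticulum form Hsp90b1 at -0.27 ± 0.16 and the mitochondrial form Trap1 at 3.24 ± 0.07. The 2 probes of Hsp90ab1 lay 1.57 apart and the 2 of Hspa9 lay 1.35 apart, which these SDs do not include. Cryab, a small heat shock protein gene, was at -0.69 ± 0.07. These SDs, and those of the cofactors and CCT subunits given next, ran from 0.03 to 0.23. They lay on both sides of the median of 0.0926 over all detected genes. Dnaja1 was at -4.22 ± 0.15, Bag1 at 1.60 ± 0.03, the HSP70 exchange factor gene Hspbp1 at -0.47 ± 0.09 and Stub1, whose product ubiquitinates chaperone clients, at 3.76 ± 0.05. Stip1, which bridges HSP70 and HSP90, was at -1.06 ± 0.12, and Chordc1 at -2.04 ± 0.08. The CCT subunit genes Cct2 and Tcp1 were at 0.56 ± 0.07 and 3.12 ± 0.08. The only gene of these lists that spanned over 2-fold was Bag4, named after its values were seen, at -4.66 on replicate 2 against -6.01 to -5.77 on the others.

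The labelled cell type was checked against its markers. All 10 macrophage markers measured were well above background on every array, among them Cd68, Csf1r and Spi1. Of 29 measured markers of 6 other cell types, 8 (27.6%) were above background on all arrays and 18 on none. By list these 8 included 3 of 5 endothelial markers, with mean levels of -0.89 for Pecam1, -1.32 for Vwf and -5.49 for Cdh5. The 2 Vwf probes lay 6.40 apart, so neither read near that mean. Also among the 8 were 2 of 4 neutrophil markers (Camp at 0.45 and S100a8 at -4.90). Others were 2 of 5 T cell markers (Lck at -4.10 and Cd3d at -4.94) and 1 of 3 B cell markers (Pax5 at -2.91). None of 6 lung epithelial and 6 fibroblast markers passed on all arrays, although by the looser flag Scgb1a1 and Dcn passed on 4 arrays, Sftpc and Col1a2 on 3, Sftpb on 2 and Col1a1 on 1. Their part in the heat shock gene levels was not tested. The 4 arrays detected 8932 to 9311 named genes each, no spot was saturated, and of 308 negative controls 1 to 3 passed the flag on an array.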

How the data were processed

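Total RNA (100 ng) of 4 exposed cultures was labelled with Cy3 and hybridised to 1-colour Agilent arrays, 1 per culture, per the labels' protocols. The deposited files hold spot values made with Agilent Feature Extraction 11.0.1.1, as named in the submitters' processing notes. Its processed signal is a deposited intensity, background-subtracted and spatially detrended per the file headers but not normalized between arrays. The deposited median intensity of the spot and of its local background served an alternative correction. The deposited flags mark detection, saturation and outlier spots.

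Control spots and outlier spots (427 to 714 per array) were left out, and each probe's log2 processed signals were averaged. It was called detected when over 50% of its usable spots were flagged well above background. Arrays were scaled to the 75th percentile of the 17807 probes that were detected on every one. Probes were named by unversioned RefSeq accession with RefSeq rat annotation (GRCr8), in which 1 listed gene, Hspb11, is now Ift25. Gene levels average the probes detected on every array. Detection rested on signal over background, as arrays have no read depth.

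The members and lists were chosen with earlier results of these data known. Genes named outside the 10 were a fixed set of relatives and every listed chaperone gene above background on no array. No gene was named for likeness of pattern, because the samples are replicates of 1 group. Limma 3.58.1 in R 4.3.3 gave the F test through its variance moderation, with Benjamini-Hochberg adjustment over 1742 probes. The test was run on simulated data with independent spots. Spots here were correlated between arrays, so that simulation cannot show how the test behaves on them. The fit with spot position as a block was run on simulated data with shared position effects. Python 3.11.15 was used for the rest. The alternatives tried included normexp correction (offset 50), 2 other scalings, quantile normalization, other detection rules, outlier spots kept, the brightest probe and leaving out each replicate. The median over spots and spot position as a block were added after seeing the data. The files give no probe sequences.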

Additional observations from a re-analysis of the deposited data

How the results depend on the processing

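The count of 9 detected heat shock genes stayed at 9, with Hspa1a the one not detected, with outlier spots kept, a looser flag, detection on at least 3 arrays and without each replicate, and the count of wider chaperone genes stayed between 70 and 72. Those 9 genes passed on all 4 arrays and Hspa1a on none. Asking for 3 arrays or leaving out a replicate therefore could not change the count of 9, and these checks say nothing about its robustness. No heat shock gene spanned over 2-fold under any alternative. The widest range was 1.35-fold, and leaving out a replicate could hardly widen it. The median SD of the heat shock genes was 0.0756 with quantile normalization and 0.0718 to 0.141 without each replicate in turn, the lowest without replicate 1. The number of heat shock probes that differed between arrays in limma's test, 0 of 6 as reported, was 1 with normexp correction (Hspb1, limma adjusted p = 3.01e-04), 1 with median centring, 2 with the 75th percentile over all probes, 2 with quantile normalization and 6 with spot position as a block. It was 0 to 1 without each replicate, the 1 without replicate 3. The probes with median centring, the all-probe percentile and quantile normalization were those of Hspe1. Over all probes the number was 742 as reported, 226 with normexp correction, 1187 with spot position as a block and 524 to 692 without each replicate. The causes were not tested. The level of the median gene moved by 2.43 with median centring, 3.61 with the all-probe percentile, 0.78 with the looser flag and 0.20 with normexp correction. Less that shift, 112 of 126 levels moved by less than their SD. The 14 others were all 9 levels with normexp correction, which raised the dim Hspb1 to -4.37, and 5 with the brightest probe. Those 5 were all the detected genes with more than 1 probe. Most of the 112 could not move far, so that count says little about robustness. Median centring and the all-probe percentile change only the shift, and leaving out 1 replicate keeps most of each mean. No Dixon ratio over the 4 arrays passed its 95% critical value in 44 series, where about 2.2 would by chance. The 44 hold both gene means and the probes behind them, so they were not separate tests and the comparison is only rough. No paired analysis was possible because the samples form 1 group.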
